A study of Mus musculus with 7 samples.

Results

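Cytosolic ribosomal proteins were followed in lung CD11b+ conventional dendritic cells (cDC2s) of mice given house dust mite extract, a common allergen. A gene was included where its symbol was Rpl or Rps plus a number, with at most 1 of the letters a, x, y or l after it, or Rplp0, Rplp1 or Rplp2, and where a probeset of the array carried that symbol alone. Pseudogenes named with -ps were left out, and the brightest such probeset, by its mean over all 7 arrays, stood for its gene. This gave 58 of the 19938 genes measured, of which 21 encode small-subunit proteins, 34 large-subunit proteins and 3 the proteins of the stalk. RefSeq lists 82 symbols of this form, and the other 24 were not analysed here, among them Rpl3, Rpl11, Rpl13a, Rpl39 and Rps27a.

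The cells were sorted as CD11c+ MHC2+ CD11b+ Ly6C- CD64- cells from female C57Bl/6 mice, and each Affymetrix Mouse Gene 1.0 ST array held RNA from 1 pool of 10 mice. The groups were Irf3-deficient mice given 100 µg of house dust mite extract (3 arrays), wild type mice given the same extract (2 arrays) and wild type mice given PBS (2 arrays), all sampled 12 hours later. A PBS-treated Irf3-deficient group was not analysed here, and the labels do not say how the Irf3 allele was made. The comparisons address how mite-treated cDC2s without Irf3, which activates interferon genes downstream of innate sensors, differ from wild type cells. A genotype difference present before mite extract and a changed response to it cannot be told apart here.

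The cytosolic ribosome is built from ribosomal RNA and a large set of proteins, each made from its own gene and used in a fixed ratio. In mammals, most of the messages for these proteins start with a cytosine followed by a run of pyrimidines, the terminal oligopyrimidine (TOP) motif, through which the kinase mTORC1 controls their translation as a group. Activated dendritic cells are known to adjust protein synthesis during maturation.

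After mite extract, a subset of the ribosomal protein messages was lower in Irf3-deficient than in wild type cDC2s. In the limma fit across all genes (adjusted p under 0.05), 21 of 58 fell (36.2%), against 9.0% of all genes called lower. A single member, Rpl12, rose, against 10.7% of all genes called higher. The median log2 difference was -0.22 over the members and 0.00 over all genes. Against PBS-treated wild type, 29 of 58 fell in the mite-treated Irf3-deficient cells (50%), against 4.91% of all genes called lower. None rose in that comparison, against 5.89% of all genes, and 1 was higher at an unadjusted p under 0.05. The median was -0.34 over the members and 0.04 over all genes in that comparison, which differs in genotype and treatment at once. Both comparisons use the same 3 Irf3-deficient arrays.

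The windows below show the letters around the start sites of a few members, where a TOP motif would lie. They run from 10 bases before to 20 bases after the start that RefSeq gives on GRCm38.p6, on the gene's strand. Capitals mark CTTT, the short stretch that was searched on that strand. It is in 3 of the 8 windows shown and in none of them begins at the stated start. CTTT is not the TOP motif itself, so a window without capitals may still hold one. The Rps6 and Rps21 windows, for example, open at the stated start with a cytosine followed by pyrimidines. Rps12, Rps21, Rpl24, Rps28 and Rps27l were among the members that fell, Rpl12 rose, and Rps6 and Rpl41 did not pass. For Rps21 and Rps27l, RefSeq gives 2 windows each and 1 is shown.
Rps12, chr10:23787190-23787219, minus strand: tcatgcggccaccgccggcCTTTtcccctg
Rps21, chr2:180257369-180257398, plus strand: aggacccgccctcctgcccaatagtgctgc
Rpl24, chr16:55966265-55966294, plus strand: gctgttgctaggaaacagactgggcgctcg
Rps28, chr17:33824543-33824572, minus strand: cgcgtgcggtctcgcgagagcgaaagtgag
Rps27l, chr9:66946076-66946105, plus strand: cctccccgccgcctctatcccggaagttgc
Rpl12, chr2:32961702-32961731, plus strand: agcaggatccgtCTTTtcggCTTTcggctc
Rps6, chr4:86857348-86857377, minus strand: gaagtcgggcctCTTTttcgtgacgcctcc
Rpl41, chr10:128549149-128549178, minus strand: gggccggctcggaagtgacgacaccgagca

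A RefSeq window was found for 46 of the 58 members. CTTT stood in 12 of them (26.1%), against 13.5% of the 27025 genes with a window. It stood in 3 of the 14 members that fell between the mite-treated genotypes and in 9 of the other 32. The ETS-type letters CCGGAAG, searched on both strands from 250 bases before to 50 bases after the start, were in 17 of 46 member promoters (37.0%), against 9.93% of all genes. They were in 3 of the 14 that fell and in 14 of the other 32, so neither run of letters was more frequent among the members that fell. Some genes have several windows, and a match describes letters and no site of action. The CTTT counts do not tell which members carry a TOP motif, which was not searched as such.

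Among the small-subunit proteins, 12 of 21 fell in mite-treated Irf3-deficient against mite-treated wild type cells (57.1%, against 9.0% of all genes). None rose, against 10.7% of all genes (1 higher at an unadjusted p under 0.05), and the median log2 difference was -0.32. In the comparison with PBS-treated wild type, 13 of 21 fell (61.9%, against 4.91% of all genes). Rps29, a zinc-binding protein mutated in some patients with Diamond-Blackfan anaemia, had log2 values of 10.99, 11.29 and 11.33 in Irf3-deficient mite arrays, against 12.23 and 12.38 in wild type mite arrays and 12.62 and 12.27 in wild type PBS arrays. The Irf3-deficient arrays were the 3 lowest of the 7, with no overlap. Rps29 was 2.15-fold lower than in mite-treated wild type (95% CI 1.78 to 2.60, adjusted p = 6.22e-05) and 2.37-fold lower than in PBS-treated wild type (1.95 to 2.87, adjusted p = 9.89e-05).

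Rps12, a protein of the small-subunit beak that in Drosophila takes part in cell competition, had log2 values of 10.84, 11.21 and 11.09 in Irf3-deficient mite arrays, against 12.05 and 12.25 in wild type mite arrays and 12.61 and 12.22 in wild type PBS arrays. All 3 Irf3-deficient arrays lay below the other 4. The message was 2.14-fold lower than in mite-treated wild type (95% CI 1.75 to 2.62, adjusted p = 9.87e-05) and 2.57-fold lower than in PBS-treated wild type (2.10 to 3.15, adjusted p = 7.32e-05).

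Rps21 had the largest fitted fall, and also the largest spread within the wild type groups. Its log2 values were 9.27, 9.51 and 9.33 in Irf3-deficient mite arrays, against 10.29 and 11.42 in wild type mite arrays and 11.40 and 10.55 in wild type PBS arrays. The Irf3-deficient arrays agreed closely and lay below every wild type array, while both wild type pairs were more than 0.8 apart. The fall was 2.81-fold against mite-treated wild type (95% CI 1.84 to 4.29, adjusted p = 0.00221) and 3.05-fold against PBS-treated wild type (2.00 to 4.65, adjusted p = 0.00312). Without the first PBS array, the difference from PBS-treated wild type was -1.18 and no longer passed (adjusted p = 0.076).

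Rps14, whose single-copy loss marks human 5q- syndrome, lay at 11.16, 11.37 and 11.38 in Irf3-deficient mite arrays, against 12.22 and 11.96 in wild type mite arrays and 12.40 and 12.37 in wild type PBS arrays. It fell by 0.79 on the log2 scale between the mite-treated genotypes (SE 0.11, adjusted p = 0.000204) and by 1.08 against PBS-treated wild type (SE 0.11, adjusted p = 6.83e-05). The groups did not overlap in either comparison. Rps28 fell by 0.78 and by 1.03 in the same 2 comparisons. Rps19, the gene most often mutated in Diamond-Blackfan anaemia, fell by 0.65 and by 0.74. Rps3, which lines the entry channel for messenger RNA, fell by 0.46 (adjusted p = 0.00747) and by 0.81 (adjusted p = 0.000472), and the first of these no longer passed without the first wild type mite array (adjusted p = 0.080).

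Rps27l, a paralog of Rps27 and in human cells a target of p53, was the only member that rose with mite extract in wild type cells. Its log2 values were 11.46, 11.83 and 11.89 in Irf3-deficient mite arrays, 13.07 and 13.20 in wild type mite arrays, and 12.39 and 12.35 in wild type PBS arrays. The 3 groups did not overlap: wild type mite was highest and Irf3-deficient mite lowest. The message was 0.76 higher on the log2 scale in mite-treated than in PBS-treated wild type (SE 0.13, adjusted p = 0.00116). It was 2.65-fold lower in Irf3-deficient than in wild type cells after mite extract (95% CI 2.22 to 3.16, adjusted p = 4.03e-06) and 1.56-fold lower than in PBS-treated wild type (1.31 to 1.86, adjusted p = 0.00414). Without the first PBS array the last difference had an adjusted p of 0.061.

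Other small-subunit messages did not pass. Rps6, the protein that S6 kinases phosphorylate downstream of mTORC1, had log2 values of 14.15, 14.24 and 14.10 in Irf3-deficient mite arrays, against 14.08 and 13.93 in wild type mite arrays and 14.01 and 14.08 in wild type PBS arrays. The Irf3-deficient arrays were the 3 highest, by a small margin. The difference from mite-treated wild type was 0.16 (95% CI 0.00 to 0.32, adjusted p = 0.158). Rps2 differed by 0.10 (adjusted p = 0.413). Among the members that passed, Rps20 had the smallest fall, of 0.25 (adjusted p = 0.0295).

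Among the 34 large-subunit proteins, 9 fell (26.5%, against 9.0% of all genes) and 1 rose (2.94%, against 10.7%) between the mite-treated genotypes. The median was -0.18, and 15 fell against PBS-treated wild type (44.1%, against 4.91% of all genes). Rpl24, which forms a bridge between the subunits and is mutated in the belly spot and tail mouse, led the falls. Its log2 values were 10.48, 11.07 and 10.91 in Irf3-deficient mite arrays, against 11.84 and 11.83 in wild type mite arrays and 12.05 and 11.92 in wild type PBS arrays. All 4 wild type arrays lay above the 3 Irf3-deficient ones. The message was 2.01-fold lower than in mite-treated wild type (95% CI 1.62 to 2.50, adjusted p = 0.000302) and 2.24-fold lower than in PBS-treated wild type (1.81 to 2.78, adjusted p = 0.000344).

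Rpl7 was at 10.97, 11.57 and 11.34 in Irf3-deficient mite arrays, against 12.03 and 12.31 in wild type mite arrays and 12.45 and 12.17 in wild type PBS arrays. It fell by 0.88 between the mite-treated genotypes (SE 0.16, adjusted p = 0.00147). Rpl8, which lies at the peptidyl transferase centre, was at 11.34, 11.62 and 11.41 in Irf3-deficient mite arrays, against 12.13 and 12.35 in wild type mite arrays and 12.61 and 12.32 in wild type PBS arrays. It fell by 0.78 (SE 0.12, adjusted p = 0.000509). For both genes the Irf3-deficient arrays were the 3 lowest. Rpl13, Rpl36a, Rpl23, Rpl23a and Rpl7a also fell, by 0.61, 0.59, 0.56, 0.46 and 0.30.

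Rpl5, which with Rpl11 and 5S RNA forms the particle that can bind Mdm2, was at 11.53, 12.12 and 11.94 in Irf3-deficient mite arrays, against 12.42 and 12.47 in wild type mite arrays and 13.01 and 12.60 in wild type PBS arrays. It fell by 0.58 between the mite-treated genotypes (SE 0.16, adjusted p = 0.0195) and by 0.94 against PBS-treated wild type (adjusted p = 0.00231). The first of these depended on both wild type mite arrays, with an adjusted p of 0.054 without the first and 0.089 without the second. The second had an adjusted p of 0.062 without the first PBS array.

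Rpl12, which sits at the base of the stalk where elongation factors bind, went the other way. Its log2 values were 8.87, 9.03 and 9.32 in Irf3-deficient mite arrays, against 8.48 and 8.38 in wild type mite arrays and 8.64 and 8.82 in wild type PBS arrays. The Irf3-deficient arrays were the 3 highest. The message was 1.56-fold higher than in mite-treated wild type (95% CI 1.27 to 1.91, adjusted p = 0.00456), and 0.34 higher on the log2 scale than in PBS-treated wild type, which did not pass (adjusted p = 0.146). Its mean signal was higher than that of 63.6% of all genes, whereas 41 of the 58 members lay above the 95th percentile.

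Large-subunit messages that did not pass between the mite-treated genotypes included the brightest. Rpl41, the shortest ribosomal protein, was at 13.48, 13.49 and 13.48 in Irf3-deficient mite arrays, against 13.41 and 13.36 in wild type mite arrays and 13.35 and 13.44 in wild type PBS arrays. All 7 values lay between 13.35 and 13.49, and the difference between the mite-treated genotypes was 0.10 (95% CI -0.05 to 0.25, adjusted p = 0.42). Rpl38, which in mice is needed for translation of some Hox messages, differed by 0.07 (adjusted p = 0.707). Rpl10, which joins the subunit late in its maturation, differed by -0.17 (adjusted p = 0.173). Rpl4 differed by 0.12 (adjusted p = 0.515) and Rpl22, needed for T cell development in mice, by -0.34 (adjusted p = 0.0779).

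Of the 3 stalk proteins, which recruit and activate elongation factors, none passed between the mite-treated genotypes in the limma fit, nor at an unadjusted p under 0.05. Rplp0, the stalk's anchor, was at 13.76, 13.87 and 13.92 in Irf3-deficient mite arrays, against 13.99 and 13.90 in wild type mite arrays and 14.11 and 14.14 in wild type PBS arrays. It overlapped between the mite-treated genotypes (difference -0.09, adjusted p = 0.472) and fell by 0.28 against PBS-treated wild type (adjusted p = 0.0245). That call was lost under 6 of the alternatives. Rplp1 and Rplp2, which pair on Rplp0, differed from mite-treated wild type by -0.04 and -0.12.

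Of the tissue-restricted paralogs, none of the muscle gene Rpl3l (-0.01), the testis gene Rpl39l (0.03) and the testis gene Rpl10l (-0.32) passed between the mite-treated genotypes. Their mean signals exceeded those of 16.8%, 10.3% and 34.3% of all genes. Rps4l, which RefSeq lists as a transcribed pseudogene, fell by 0.32 (adjusted p = 0.0481), a call lost under 6 of the alternatives. Without these 4 paralogs, Rpl32l and Rps27l, 19 of 52 members fell against mite-treated wild type (36.5%, against 9.0% of all genes). Against PBS-treated wild type, 28 of 52 fell (53.8%, against 4.91% of all genes). Over all 58 members, those that did not pass between the mite-treated genotypes differed by -0.37 (Rpl14) to 0.25 (Rpl29).

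**Figure D1:**
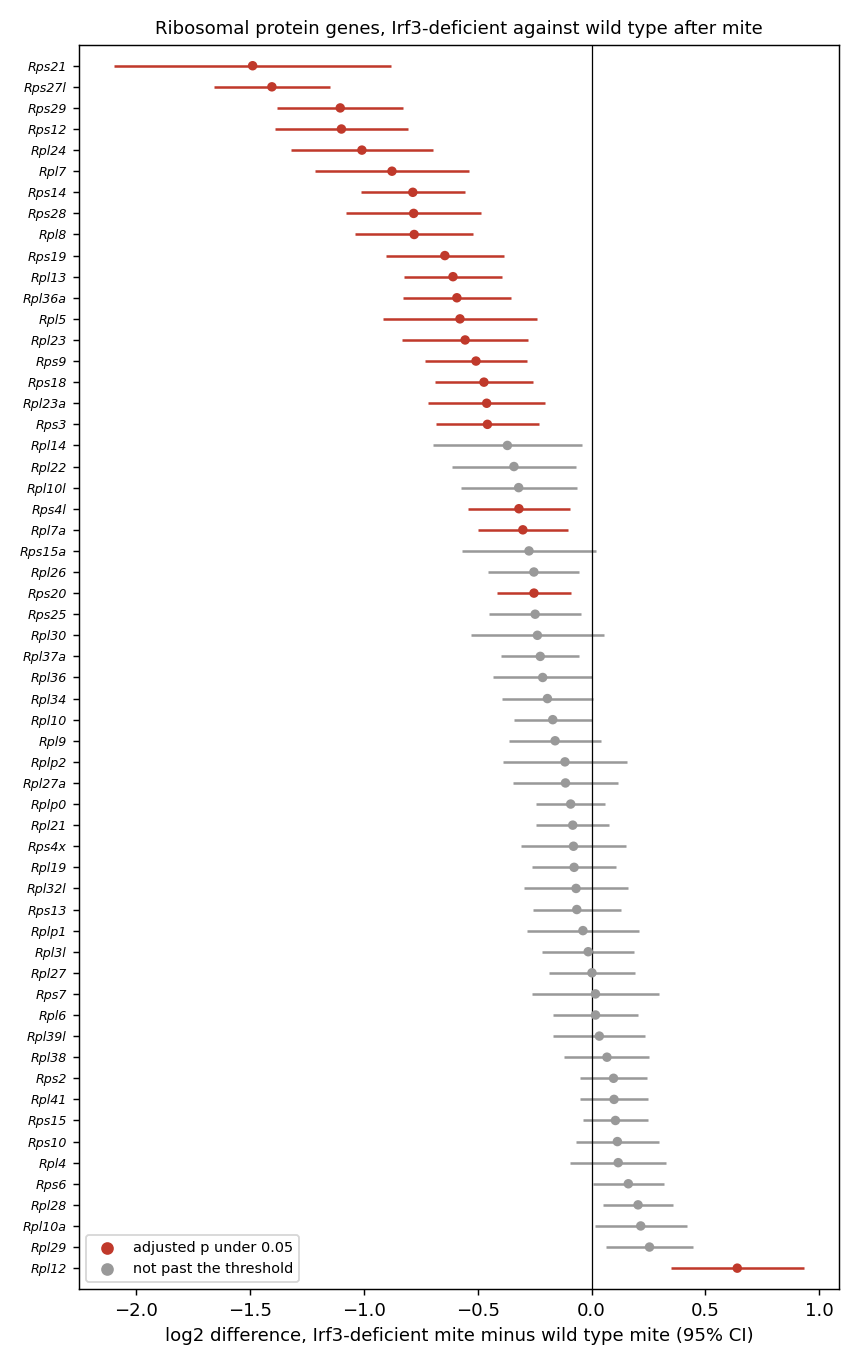
Log2 difference of each of the 58 ribosomal protein genes, mite-treated Irf3-deficient minus mite-treated wild type, with its 95% confidence interval from the limma fit (3 arrays against 2). Red points passed an adjusted p of 0.05; 21 of them lie below 0 and Rpl12 alone lies above.

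The member median was lowest in the 3 Irf3-deficient arrays, and the members moved by unequal amounts. Set against the mean of the PBS arrays, the member median was -0.44, -0.29 and -0.30 in the Irf3-deficient mite arrays, against -0.14 and -0.18 in the wild type mite arrays. In 29 of 58 members, all 3 Irf3-deficient arrays lay below all 4 wild type arrays, against 6.75% of all genes (1345 genes). The lower quartile of the members was -0.92, -0.69 and -0.70 in the Irf3-deficient arrays, and the upper quartile -0.21, -0.04 and -0.12. On each Irf3-deficient array, messages lower by more than 1 log2 unit thus stood beside messages at the PBS level.

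**Figure D2:**
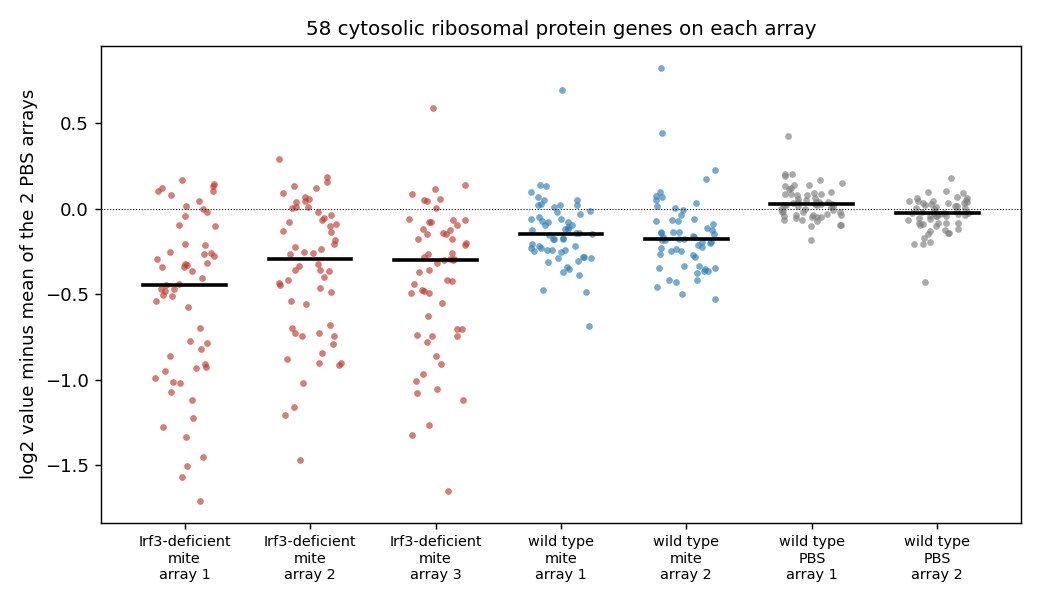
Log2 value of each member minus its mean over the PBS arrays (vertical axis), for each of the 7 arrays (horizontal axis), with a bar at the median of the 58 genes. The Irf3-deficient mite medians lie at -0.44, -0.29 and -0.30, against -0.14 and -0.18 for wild type mite; the PBS arrays mirror each other because they set the zero.

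In wild type cells, mite extract moved few members past the threshold. Rps27l rose and Rpl36, a large-subunit protein, fell, which is 1 of 58 in each direction, against 8.35% of all genes called higher and 9.23% called lower. The median member difference was -0.17, against 0.03 over all genes, and 49 of 58 members were below 0. At an unadjusted p under 0.05, 12 members were lower and 1 higher. Rpl36 was at 12.60 and 12.33 in wild type mite arrays, against 12.83 and 12.83 in wild type PBS arrays, a fall of 0.36 (SE 0.11, adjusted p = 0.0371).

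The low count in wild type cells depended on the processing and on single arrays. It was 9 of 58 when arrays were centred on the brightest 10% of genes, 8 without the first wild type mite array, 5 without the first Irf3-deficient array and 1 under several other alternatives. Rpl36 lost its call under 8 of the alternatives, while Rps27l kept its rise under all of them. A low count of calls with 2 arrays a side does not show that these messages were unaffected by mite extract.

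Of the 21 called against mite-treated wild type, 14 were called lower under every alternative: Rps9, Rps12, Rps14, Rps18, Rps19, Rps21, Rps27l, Rps28, Rps29, Rpl7, Rpl8, Rpl13, Rpl24 and Rpl36a. Of the 29 called against PBS-treated wild type, 15 were. Without the first PBS array, the count against PBS-treated wild type was 15 of 58, all among the 29.

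The probes of these genes are open to cross-hybridisation, because mammalian genomes hold many processed pseudogenes close in sequence to ribosomal protein messages. The members had 210 single-symbol probesets in all, of which 85 were called lower and 2 higher between the mite-treated genotypes. The 2 higher were the only probeset of Rpl12 and 1 of the 3 of Rps15. The probesets of Rps15 differed by 0.11 to 0.40, and its brightest, which stood for the gene, did not pass (adjusted p = 0.349). Of the 38 genes with several probesets, 13 had all of them called lower, 20 had none called, and none had calls in opposite directions. The difference ranged by a median of 0.08 between the probesets of a gene and by at most 0.33, in Rpl27. All 14 probesets of Rps12 lay between -1.10 and -0.93, and all 7 of Rps28 between -0.78 and -0.68. Probesets of 1 gene may share probes, so they are not independent readings, and pseudogene copies may add to each.

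**Figure D3:**
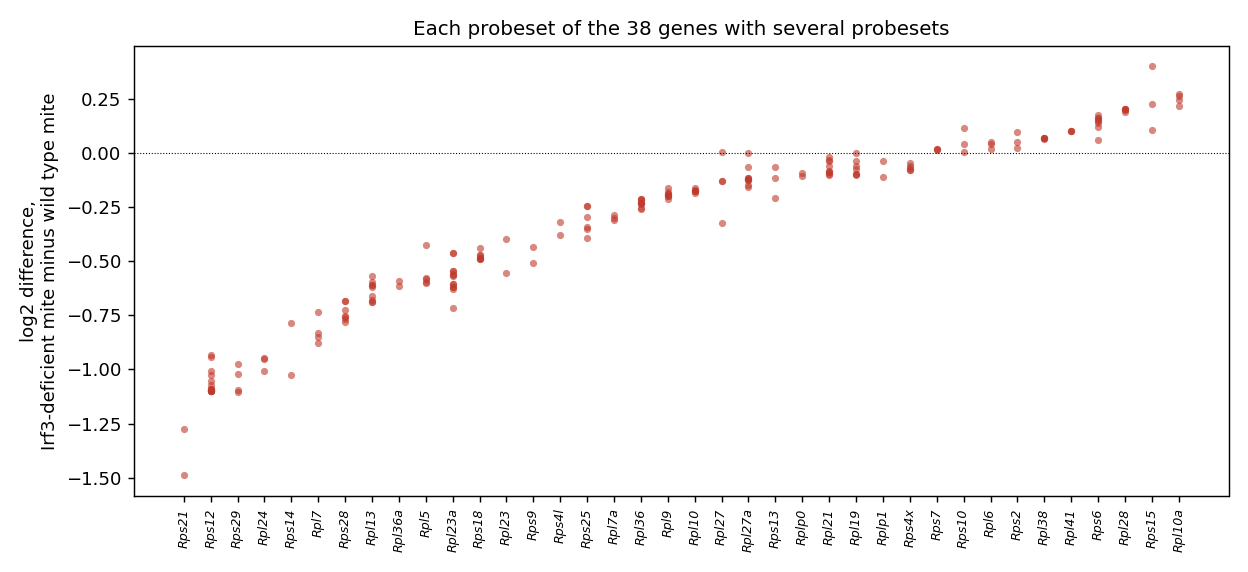
Log2 difference between the mite-treated genotypes (Irf3-deficient minus wild type, vertical axis) for each probeset of the 38 members that have several. Genes are ordered by the median difference of their probesets. The probesets of a gene differ by a median of 0.08, while the genes span from below -1 to above 0.

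Whether short genes fell most was asked with the genomic span in RefSeq, since transcript lengths were not used here. Over the 58 members, the difference between the mite-treated genotypes was unrelated to span (Spearman rho 0.02, Pearson r 0.06), and so was the difference from PBS-treated wild type (rho 0.01) and that of wild type mite against PBS (rho -0.08). Over the 19856 genes with a span, the same rho values were 0.15, 0.03 and -0.11. Among protein-coding genes of at most 1000 bp, 3.94% were called lower between the mite-treated genotypes, as were 7.36% of those from 1000 to 2000 bp and 10.0% of those from 2000 to 3000 bp. The members in the last 2 classes were called lower in 3 of 8 (37.5%) and 7 of 16 (43.8%). Rps21, with a span of 1066 bp, fell by 1.49, and Rpl41, with a span of 1059 bp, differed by 0.10. Span counts introns, which make up most of these genes, so it stands only loosely for transcript length.

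The members that fell were not the brightest ones. Of the 14 with a mean log2 signal from 11 to 12, 10 fell between the mite-treated genotypes, against 19.7% of all genes in that range. From 12 to 13, 8 of 17 fell, against 19.6% of all genes. From 13 to 15, 1 of 15 fell (Rps20), against 13.4% of all genes. Across the 58 members the difference was weakly related to mean signal (Spearman rho 0.38, Pearson r 0.08).

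**Figure D4:**
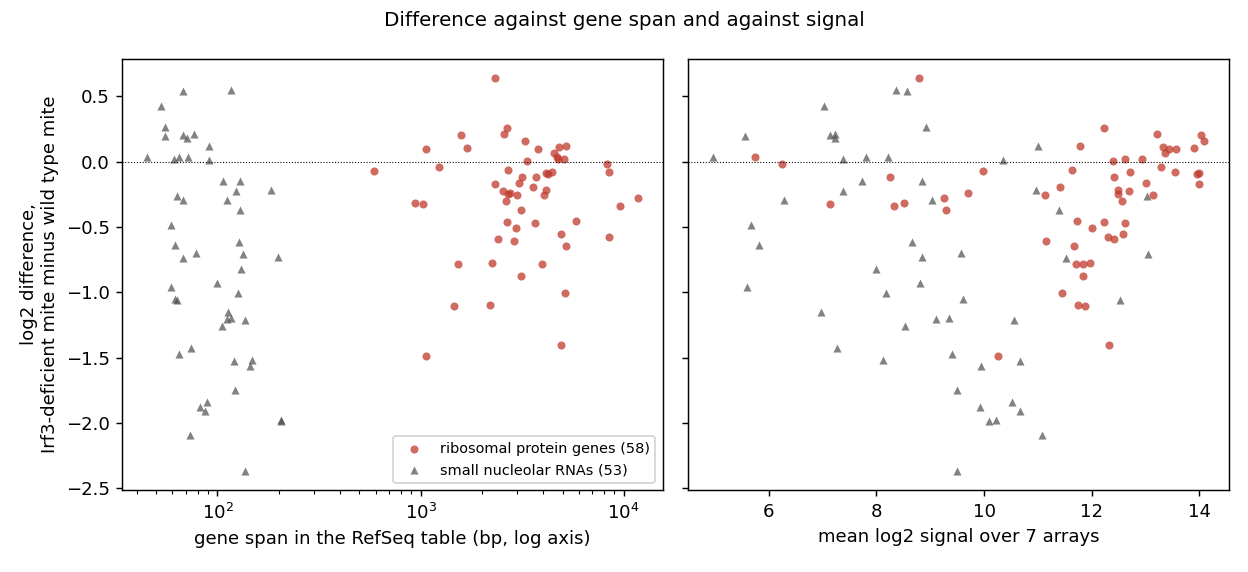
Log2 difference between the mite-treated genotypes (Irf3-deficient minus wild type) for the 58 ribosomal protein genes (circles) and 53 small nucleolar RNAs (triangles), against genomic span on a log axis (left) and mean log2 signal over 7 arrays (right). The members show no trend with span (rho 0.02), and 18 of the 21 that fell have mean signals from 11 to 13.

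The same members also differed between arrays of 1 group. Across the 58 members, the first minus the second PBS array correlated with the difference between the mite-treated genotypes, which uses neither PBS array, at a Spearman rho of -0.69 (Pearson r -0.71), against -0.11 over all genes. Of the 21 members that fell, 19 were higher on the first than on the second PBS array, with a median gap of 0.17. Of the other 37 members, 16 were, with a median of -0.01. The gap between the wild type mite arrays correlated with the gap between the PBS arrays at a rho of -0.62, against -0.16 over all genes. These are descriptions over genes measured on the same arrays. The median fall in those 21 members was 0.61, but they were chosen for passing that comparison, so it is not a measure to set against the gap of 0.17. The part of this within-group variation in the falls was not tested.

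Small nucleolar RNAs, which guide the chemical modification of ribosomal RNA and lie mostly in introns of ribosomal protein and other translation genes, were read as a class chosen after their values were seen. Of the 53 measured, 45 to 205 bases long, 28 were lower between the mite-treated genotypes (52.8%, against 9.0% of all genes). In that comparison 2 were higher (3.77%, against 10.7%), and the median log2 difference was -0.71. Set against PBS-treated wild type, 19 were lower (35.8%, against 4.91% of all genes), with a median of -0.57. None were higher, against 5.89% of all genes, and 2 were higher at an unadjusted p under 0.05. In wild type mite against PBS, the limma fit called none in either direction, against 8.35% of all genes higher and 9.23% lower. At an unadjusted p under 0.05, 4 of these RNAs were higher and 1 lower. They varied strongly within groups: the first minus the second array had a median of -0.50 in mite-treated and 0.43 in PBS-treated wild type cells.

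Of these RNAs, 10 lie within the spans of 8 members, and 5 of them were called lower between the mite-treated genotypes. Snord15b, inside Rps3, was at 8.91, 9.08 and 9.34 in Irf3-deficient mite arrays, against 9.94 and 11.41 in wild type mite arrays and 10.99 and 9.98 in wild type PBS arrays. It differed by -1.56 (adjusted p = 0.00701), and the fall in its host Rps3 was 0.46. Snord15a, also inside Rps3, differed by -1.52 (adjusted p = 0.0126) and Snora33, inside Rps12, by -1.26 (adjusted p = 0.00186). Snora3 differed by -1.53 (adjusted p = 0.016) while its host Rpl27a differed by -0.11 and did not pass. Snora52 differed by -0.71 (adjusted p = 0.00116) while its host Rplp2 differed by -0.12 and did not pass. Snord42a and Snord42b, inside Rpl23a, differed by 0.03 and 0.27 and did not pass, while Rpl23a fell.

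Ribosome biogenesis factors, which make and assemble the subunits in the nucleolus, moved apart from the ribosomal proteins between the mite-treated genotypes. Of the 53 measured on a list chosen with earlier results known, 25 were higher in mite-treated Irf3-deficient than in mite-treated wild type cells. That is 47.2%, against 10.7% of all genes, while 2 were lower (3.77%, against 9.0%), with a median of 0.33. Dkc1, the pseudouridine synthase of small nucleolar RNA particles, was at 10.40, 10.20 and 10.07 in Irf3-deficient mite arrays, against 8.85 and 8.67 in wild type mite arrays and 9.44 and 9.46 in wild type PBS arrays. It rose by 1.46 between the mite-treated genotypes (SE 0.12, adjusted p = 3.38e-06), and it fell by 0.69 in wild type mite against PBS (adjusted p = 0.00273). Tsr1, needed for small-subunit maturation, rose by 0.87 between the mite-treated genotypes. Eif6 and Sbds, which act together in the last steps of large-subunit maturation, fell by 0.73 and 0.41. Relative to PBS-treated wild type, 8 of the 53 were higher (15.1%, against 5.89% of all genes) and 2 lower (3.77%, against 4.91%). In wild type mite against PBS, 2 were higher (3.77%, against 8.35%) and 7 lower (13.2%, against 9.23%). In that comparison 43 of 53 were below 0, with a median of -0.21, against a median of -0.17 for the ribosomal proteins.

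Elongation factors and other genes whose messages carry TOP motifs differed in direction from comparison to comparison. Of 18 measured, 4 were higher (22.2%, against 10.7% of all genes) and 1 lower (5.56%, against 9.0%) between the mite-treated genotypes, with a median of 0.00. Relative to PBS-treated wild type, 3 were lower (16.7%, against 4.91% of all genes) and 2 higher (11.1%, against 5.89%) in the mite-treated Irf3-deficient cells. The median was -0.15 in that comparison, and 8 were lower and 3 higher at an unadjusted p under 0.05. Npm1, a nucleolar chaperone, rose by 0.77 between the mite-treated genotypes (adjusted p = 0.000176). Eif2s3x, a subunit of initiation factor eIF2, rose by 0.81 between them (adjusted p = 8.90e-05), whereas Eif3e fell by 0.56 (adjusted p = 0.0239). In wild type mite against PBS, 7 of the 18 fell (38.9%, against 9.23% of all genes), with a median of -0.28. None rose in the limma fit, against 8.35% of all genes, or at an unadjusted p under 0.05. Eif4b, an initiation factor, fell by 0.51 in that comparison (adjusted p = 0.00475). Of 22 genes of mTORC1 and translational control, 5 were higher (22.7%, against 10.7% of all genes) and 3 lower (13.6%, against 9.0%) between the mite-treated genotypes. Deptor, an inhibitor of mTOR, rose by 1.13 (adjusted p = 6.61e-05) and Myc by 0.41 (adjusted p = 0.043). Eif2ak2 fell by 1.64 (adjusted p = 1.45e-05) and Rheb, the activator of mTORC1, by 0.75 (adjusted p = 0.00403). Larp1, which binds TOP motifs, differed by 0.06 (adjusted p = 0.796). Against PBS-treated wild type, the mite-treated Irf3-deficient cells differed by -0.27 for Deptor (adjusted p = 0.245) and -0.74 for Rheb (adjusted p = 0.00909). Larp1 was higher by 0.51 in that comparison (adjusted p = 0.00506). Whether mTORC1 activity differed was not tested.

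**Figure D5:**
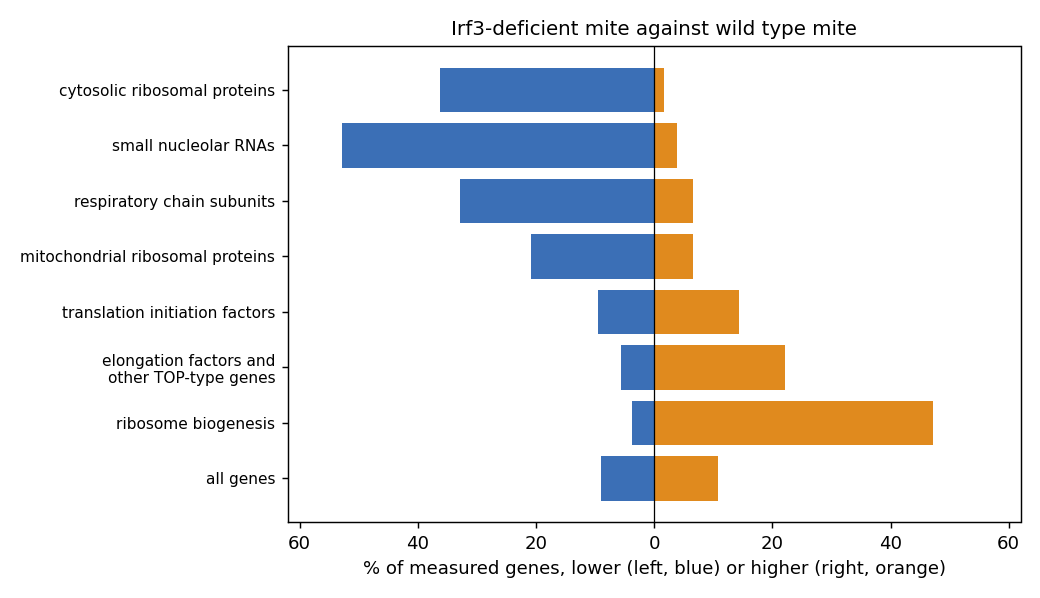
Share of measured genes in each class called lower (left of 0, blue) or higher (right of 0, orange) in mite-treated Irf3-deficient against mite-treated wild type cells, at a limma adjusted p under 0.05. The ribosomal proteins were 36.2% lower, the biogenesis factors 47.2% higher, and all genes 9.0% lower and 10.7% higher.

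Ribosomal proteins whose symbols fall outside the pattern did not share a direction. Of 8 listed, 4 had a probeset of their own. Rpsa, a small-subunit protein also known as the laminin receptor, differed by -0.30 between the mite-treated genotypes (adjusted p = 0.295) and fell by 0.62 against PBS-treated wild type (adjusted p = 0.0355). Fau, which is made as a fusion with a ubiquitin-like protein, differed by -0.08 between the mite-treated genotypes. Rps3a1 rose by 0.94 between them (SE 0.21, adjusted p = 0.00659), and the paralog Rpl7l1 differed by 0.01.

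Irf3 itself followed the labels, with means of 8.23 ± 0.09 (SD, n = 3) in Irf3-deficient mite, 9.58 ± 0.01 (n = 2) in wild type mite and 9.52 ± 0.06 (n = 2) in wild type PBS arrays. All 17 measured interferon-stimulated genes were lower in mite-treated Irf3-deficient than in mite-treated wild type cells (against 9.0% of all genes), with a median of -2.40. All 17 were also higher in those cells than in PBS-treated wild type (against 5.89% of all genes), with a median of 1.06. The summed linear signal of 14 monocyte and macrophage markers was 41283 to 42906 in Irf3-deficient mite, 21661 to 27483 in wild type mite and 48789 to 58831 in wild type PBS arrays. Between the mite-treated genotypes, 9 of these 14 were higher (64.3%, against 10.7% of all genes) and 2 lower (14.3%, against 9.0%). Fcgr1, the gene of the sort marker CD64, was among the 2 and was lower by 1.67. The 11 cDC2 and sort markers summed to 112288 to 118369 in Irf3-deficient mite, 106288 to 106494 in wild type mite and 116710 to 118101 in wild type PBS arrays. Of these, 3 were higher (27.3%, against 10.7%) and 1 lower (9.09%, against 9.0%) between the mite-treated genotypes. The 16 measured lymphocyte markers summed to 2847 to 3372 in Irf3-deficient mite, 3063 to 3250 in wild type mite and 3184 to 3509 in wild type PBS arrays. Of these, 3 were higher (18.75%, against 10.7%) and 6 lower (37.5%, against 9.0%) between the mite-treated genotypes. The 14 epithelial, endothelial and neutrophil markers summed to 13262 to 14957 in Irf3-deficient mite, 16138 to 25947 in wild type mite and 21915 to 27486 in wild type PBS arrays. Of these, 1 was higher (7.14%, against 10.7%) and 2 lower (14.3%, against 9.0%) between the mite-treated genotypes. The part of all these marker classes in the ribosomal protein falls was not tested, and array values have no true 0, so no marker could be called absent. In such bulk samples, fewer cells with a high level and less RNA per cell cannot be told apart.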

How the data were processed

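Each of the 7 arrays has 35556 deposited probeset values on the log2 scale. Per the submitters' processing notes, R 3.2.1, oligo and RMA were used, with no roles or order given. If quantile normalisation was part of RMA here, a shift of all messages could not be seen. The genome build behind the probesets is not given in the sources used here. Probesets with 1 symbol in the platform annotation (21789) were kept, updated through Entrez identifiers in the GRCm38.p6 RefSeq table (19856 of 19938 genes matched), the brightest per gene by mean over 7 arrays. Signals of different probesets are not comparable as levels.

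One mean per group was fitted to all 7 arrays with lmFit of limma 3.58.1 (R 4.3.3), and the variances were moderated by eBayes along an intensity trend, with 4 residual and 8.34 prior degrees of freedom. Tests were two-sided, with Benjamini-Hochberg adjustment over 19938 genes. Every adjusted p-value comes from this fit, and "rose", "fell", "higher" and "lower" counts use a threshold of 0.05. Within groups, arrays correlated at 0.995 to 0.997, and the number of arrays limits the precision. Each array is a separate pool of 10 mice, so p-values measure the spread between pools. The fit was tested on simulated data. No scan date or batch was given.

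The members and lists were chosen with earlier results of these data known. Named were the 5 largest rises and falls among members that passed per comparison, a panel with known roles, genes beside the rule, and up to 2 genes per list and direction by smallest p; Rps20, Rps18 and others completing a count were named after their values were seen, as were the small nucleolar RNAs, microRNAs, respiratory chain and mitochondrial ribosomal classes. Transcript and protein lengths were planned, but genomic span was used because it was the length at hand. Same-numbered arrays did not deviate together (r from -0.23 to 0.18 over genes), so replicate numbers were not taken as pairs. Alternatives were the variance model, centring, a filter on dim genes, probeset choice, samples in the fit, a replicate block, symbols as annotated, and each array left out.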

Additional observations from a re-analysis of the deposited data

How the results depend on the processing

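The member medians kept their sign under all alternatives run. There were 16 in wild type mite against PBS, and 1 of them, a crossed replicate block, was not run for the other comparisons. Between the mite-treated genotypes the median ran from -0.242 (without the second wild type mite array) to -0.154 (without the first Irf3-deficient array). In wild type mite against PBS it ran from -0.239 (centring on the brightest 10%) to -0.130 (without the first PBS array). Whether these moves exceed the spread between arrays of a group was not tested. Among the named members' values, 928 kept their direction and side of the threshold, 29 newly passed, 27 no longer passed and 20 turned sign, all of them in 12 differences that did not pass before or after. When single arrays were left out, these ran, in wild type mite against PBS, from -0.0592 to 0.0364 for Rpl41, -0.00214 to 0.0991 for Rpl39l, -0.0236 to 0.170 for Rpl3l, -0.310 to 0.0338 for Rps29, -0.133 to 0.0240 for Rpl38 and -0.123 to 0.0260 for Rps6. Between the mite-treated genotypes they ran from -0.257 to 0.181 for Rplp1, -0.0109 to 0.146 for Rpl38, -0.0451 to 0.0109 for Rpl3l and -0.00377 to 0.105 for Rpl39l, and against PBS-treated wild type from -0.0472 to 0.0700 for Rpl38 and -0.0383 to 0.155 for Rpl3l. Centring on the brightest 10% gave -0.0220 for Rpl39l in wild type mite against PBS, and -0.0561 for Rpl38 and -0.0108 for Rpl3l against PBS-treated wild type; median centring gave 0.00230 for Rpl41 in wild type mite against PBS. The count called between the mite-treated genotypes (22) stayed between 17 and 25, with 17 to 22 when single arrays were left out and 19 with a replicate block. Against PBS-treated wild type (29) it was 23 with a replicate block and 15 to 33 when single arrays were left out, lowest without the first PBS array. In wild type mite against PBS (2) it was 9 with centring on the brightest 10%, 5 without the dimmest 25%, 1 without the intensity trend, with median centring and with a replicate block, and 1 to 8 when single arrays were left out. The crossed replicate block, added after the data were seen because same-numbered wild type arrays deviated oppositely (r -0.23), called 15 there. It was chosen from the same deviations that it removes, so its count cannot show that more members differed in that comparison. The rho of change with span was -0.144 to 0.0737 for that comparison, -0.0114 to 0.0678 between the mite-treated genotypes and -0.0380 to 0.0326 against PBS-treated wild type when single arrays were left out, and -0.0401 in the last without the dimmest 25%. The cause of these shifts was not tested. Protein length was not run. With 2 arrays in each wild type group, a member that did not pass may still differ.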

Other observations

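Other products of nuclear genes for protein synthesis and energy supply were read as classes chosen after values were seen. Of 76 respiratory chain subunits, 25 were lower in mite-treated Irf3-deficient than in mite-treated wild type cells (32.9%, against 9.0% of all genes). The median log2 difference was -0.17, and 5 were higher (6.58%, against 10.7%). Against PBS-treated wild type, 28 were lower (36.8%, against 4.91% of all genes) and 1 higher (1.32%, against 5.89%), with a median of -0.26. In wild type mite against PBS, 1 was lower (1.32%, against 9.23%) and none higher (against 8.35%) in the limma fit. At an unadjusted p under 0.05, 7 were lower and 3 higher in that comparison. Of 77 mitochondrial ribosomal proteins, 16 were lower (20.8%, against 9.0% of all genes) and 5 higher (6.49%, against 10.7%) between the mite-treated genotypes (median -0.14). Against PBS-treated wild type, 5 were lower (6.49%, against 4.91% of all genes) and 6 higher (7.79%, against 5.89%). In wild type mite against PBS, 11 were higher (14.3%, against 8.35%) and none lower (against 9.23%), with 3 lower at an unadjusted p under 0.05. The 297 microRNA hairpins, also short RNAs, were lower in 8 cases (2.69%, against 9.0% of all genes) between the mite-treated genotypes. They were higher in 7 (2.36%, against 10.7%), with a median of -0.02.

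Of 21 translation initiation factors, 3 were higher (14.3%) and 2 lower (9.52%) between the mite-treated genotypes, close to the 10.7% and 9.0% of all genes. Eif2b3, a subunit of the exchange factor for eIF2, rose by 0.78 (adjusted p = 0.000703) and Eif3b, a core subunit of eIF3, rose by 0.65 (adjusted p = 0.000345), whereas Eif3d, another subunit of eIF3, fell by 0.45 (adjusted p = 0.00474). Polr1a, the large subunit of RNA polymerase I, which transcribes ribosomal RNA genes, rose by 0.75 (adjusted p = 0.000237) between the mite-treated genotypes and fell by 0.62 in wild type mite against PBS (adjusted p = 0.0019).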
